A study of Mus musculus with 6 samples.

Results

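The features described here are probes for long intergenic noncoding RNA (lincRNA) regions that lie close to a protein-coding gene on the same strand. The array names each such probe by a mouse region and a strand letter, F for plus and R for minus, and several probes usually tile 1 region. A region probe was taken when its own position was within 20 kb of at least 1 probe for a curated coding transcript (RefSeq accession beginning NM_) on the same strand. The rule used positions alone, not measured values, and it found 3588 of 16181 lincRNA region probes among 55681 probes in all. These 3588 probes carried 1072 region names, which merged into 777 separate loci beside 714 coding genes. There were 1749 probes on the plus strand and 1839 on the minus strand, 2662 lay downstream of the nearest coding probe, 890 lay upstream and 36 overlapped it, and the median distance was 9189 bases.

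RNA was measured on 6 single-colour Agilent arrays, 3 for each of 2 groups, from erythroid progenitors of mouse fetal liver at embryonic stage E-14.5. In the shExosc8 group a retrovirus delivered a short hairpin RNA against Exosc8, and in the shControl group one against luciferase, a gene that mouse cells lack. Cells of both groups were purified with a bead kit, spun with virus and polybrene, and grown for 3 days with erythropoietin, dexamethasone and kit ligand while they matured. The sources used here do not give the strain, any sorting of infected cells, or the animals and cultures behind each replicate. The p-values therefore measure only how far these samples spread, and that spread may be technical.

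EXOSC8 is a structural subunit of the RNA exosome, a multi-protein complex that degrades or trims RNA from its 3′ end in the nucleus and the cytoplasm. In the nucleus, adaptor proteins bring it to short-lived products such as promoter upstream transcripts, enhancer RNAs and many lincRNAs, and it also trims transcripts that run past the end of a gene. A noncoding region close to a coding gene on the same strand can therefore be a transcript of its own, an unannotated extension of the coding gene, or RNA read through from it. An array probe reports RNA that holds its bases and does not tell these apart.

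Some probe sequences carry the main contrasts and are given from the deposited array files, 5′ to 3′ in the sense of the region, with positions on mm9. The first, beside Foxo6, is the one among the 8 largest rises that was above background on all 6 arrays. It is followed by the largest fall that was above background on arrays of both groups (Spag9), a region that rose beside a coding gene that did not pass the test (Nup205), and regions that moved away from their neighbour (Zfp202, Abcb9). The next 4 are 2 pairs that read the plus and the minus strand of 1 place, and the last is the brightest member. Capitals mark the polyadenylation hexamer AATAAA where it occurs.
Foxo6 neighbour, chr4:119923883-119923942, minus: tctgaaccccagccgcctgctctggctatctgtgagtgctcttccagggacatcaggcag
Spag9 neighbour, chr11:93999912-93999971, plus: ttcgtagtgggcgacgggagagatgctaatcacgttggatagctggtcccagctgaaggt
Nup205 neighbour, chr6:35202961-35203020, plus: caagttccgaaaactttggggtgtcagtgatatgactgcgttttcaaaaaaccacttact
Zfp202 neighbour, chr9:40030699-40030758, plus: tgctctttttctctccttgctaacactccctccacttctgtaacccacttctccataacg
Abcb9 neighbour, chr5:124502288-124502347, minus: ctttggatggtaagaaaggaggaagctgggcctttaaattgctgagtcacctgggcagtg
Neu1 neighbour, chr17:35089192-35089251, plus: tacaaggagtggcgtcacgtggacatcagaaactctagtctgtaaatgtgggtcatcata
Hspa1a neighbour, chr17:35089191-35089250, minus: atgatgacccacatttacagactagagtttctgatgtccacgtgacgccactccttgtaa
Perm1 neighbour, chr4:155569452-155569511, plus: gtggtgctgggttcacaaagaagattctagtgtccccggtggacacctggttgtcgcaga
Isg15 neighbour, chr4:155569452-155569511, minus: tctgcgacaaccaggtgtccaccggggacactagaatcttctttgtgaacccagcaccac
B4galt5 neighbour, chr2:167106861-167106920, minus: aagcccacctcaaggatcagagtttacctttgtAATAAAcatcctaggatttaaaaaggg

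The hexamer AATAAA, searched as these 6 letters on the probe's own strand, stood in 3.9% of the 3588 member probes and in 3.92% of the other lincRNA region probes. It stood in 13.2% of the 26585 coding probes, and in 3.29% and 3.73% of the member probes called higher and lower. The reverse complement of the hexamer was in 3.12% of member probes. Median GC content was 45.0% in member probes and 41.7% in coding probes. Gene parts (exon, intron) on mm9 were not used here, so the distances below are between probes and not between transcripts. By exact match of their letters, 28 members lay within the RefSeq promoter windows of GRCm38.p6, 250 bases before to 50 after a start, and 9 of these were in the window of the neighbour's own gene. Of those 28, 11 passed the filter on dim probes, and limma called 0 of them, with 4 at an unadjusted p under 0.05.

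The targeted gene was lower in every shExosc8 array. The normalised signal of Exosc8 was 7160, 7080 and 10200 in the shExosc8 arrays and 17400, 17300 and 18400 in the shControl arrays, so shExosc8 stood at 45.3% of control (log2 -1.14 ± 0.17 SE, limma adjusted p = 0.00606). With 3 arrays a group an exact two-sided permutation test cannot go below 0.1, and it gave 0.1. The share of probes well above background was 67.3% on shControl replicate 2 and 43.1% to 49.3% on the other 5 arrays. All 6 arrays were on 1 slide, with the shExosc8 arrays in its second row and the shControl arrays in its first, so slide row and hairpin cannot be told apart.

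Most probes beside coding genes gave no signal that could be compared, although 608 of the 1072 regions had at least 1 tested probe. Of the 3588 member probes, 1242 (34.6%) were clear of background on every array of 1 or both groups and entered the test, and 2346 did not. On 945 members all 6 arrays were above background, and on 1095 (30.5%) none was. The share of members above background was 30.4% to 35.4% on the shExosc8 arrays, and 42.5%, 66.0% and 34.3% on shControl replicates 1, 2 and 3. For 811 members shControl replicate 2 was the only array above background. The filter favours a difference in members that passed it through 1 group only. Through shControl alone 244 passed, of which 55 were called lower and 1 higher, and through shExosc8 alone 53 passed, of which 22 were called higher. The median SE of the log2 change was 0.2 in tested members and 0.15 in tested coding probes.

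Regions beside coding genes moved in both directions. limma called 152 of the 1242 tested members higher in shExosc8 (12.2%) and 161 lower (13%), at an adjusted p of 0.05 over all 24836 probes tested. Over all probes tested 14.7% were called higher and 13.1% lower, 27.8% in either direction, against 25.2% of members. The 313 called probes came from 190 regions, 110 with a higher and 83 with a lower probe. A change of at least 2-fold was fitted for 92 of the higher and 43 of the lower probes. Among the 945 members above background on all 6 arrays, 129 were called higher and 106 lower in the same fit. The median log2 change of tested members was -0.01, beside -0.08 for all probes tested. Groups did not overlap for 513 members (41.3%), against 50.5% of all probes. The authors' deposited table gave 71 members an adjusted p under 0.05, 49 higher and 22 lower, and 311 of the 313 members called here had the same sign there, while 64 of the 313 were past the threshold there too. Both rest on the same arrays.

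Beside them, regions whose only coding probe within 20 kb was on the opposite strand had 90 higher and 52 lower calls among 630 tested. Regions with none within 20 kb, counted together with region probes that have no position, had 390 and 201 among 2581. So 13% of same-strand members were called lower, against 8.25% and 7.79% in those sets, and the difference of these shares was not tested. Same-strand members in regions whose stated bounds take in the coding probe had 50 lower calls among 204 tested. The rest had 111 among 1038. The rises were mostly measured in both groups and the falls less so. Of the 152 higher probes, 130 were above background on all 3 shControl arrays and 4 on none. Among the 161 lower probes, 106 were above background on all 3 shExosc8 arrays and 30 on none, so that their fold is only a bound. The split depended on background treatment, slide position and single arrays. With slide column as a block 2 members were called higher and 1 lower. Of the regions named below for the largest rises and falls, those beside Nnat, Ttll7 and Zfp652 kept their call in that fit, and no difference from a neighbour did. Exosc8 was then at -1.03 (limma adjusted p = 0.142). With normexp background correction before the same scaling, 197 members were called higher and 53 lower, and 139 of the 161 falls kept their sign. Without normalization between arrays the counts were 89 and 455, as the median of all probes moved from -0.08 to -0.58. With the percentile taken over all probes they were 139 and 252, and with 1 probe per name 95 and 57. Without shExosc8 replicate 1, 2 or 3 the counts were 79 and 52, 92 and 79, and 249 and 200. Without shControl replicate 1, 2 or 3 they were 84 and 61, 130 and 66, and 97 and 77. The sign of all 313 calls was the same in each of these 6 fits, and 69 higher and 38 lower probes stayed called in every one.

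**Figure D1:**
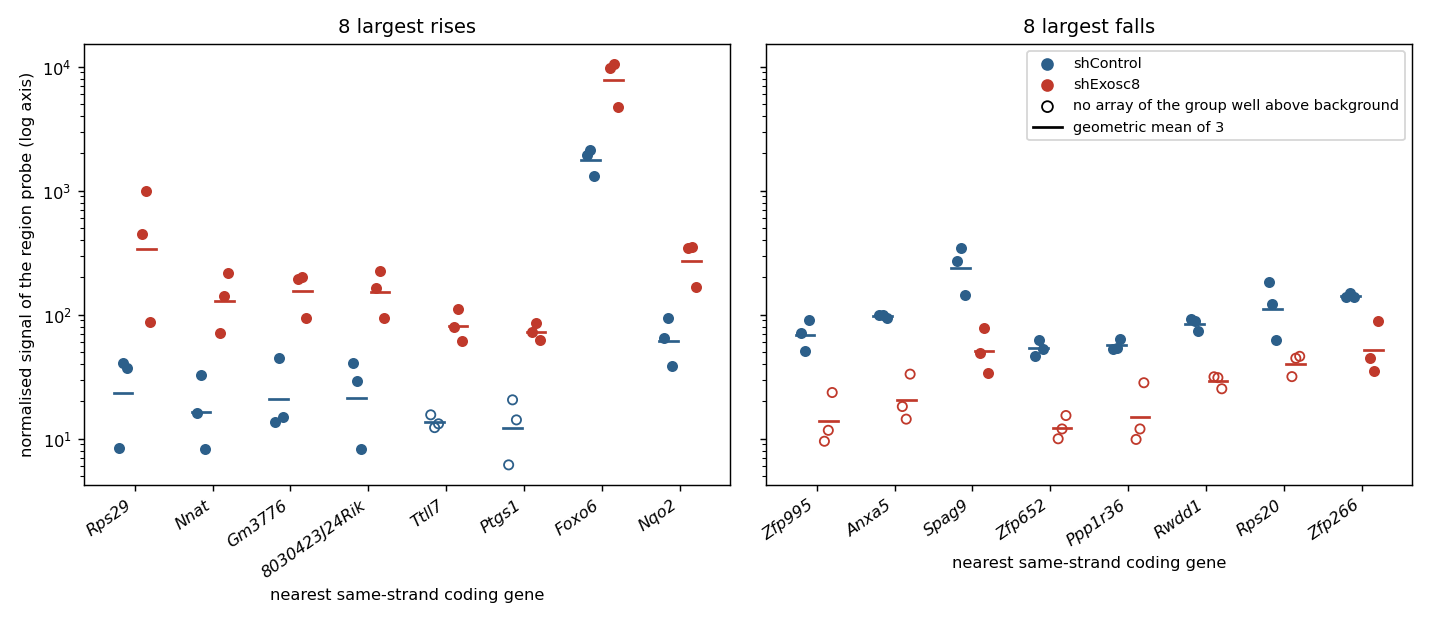
Normalised signal (log axis) of the 8 region probes with the largest rises, left, and the 8 with the largest falls, right, named by the nearest same-strand coding gene. Points are arrays, 3 shControl in blue and 3 shExosc8 in red, bars are geometric means, and open points mark groups with no array well above background. All 16 were picked from called probes whose groups do not overlap. Open shExosc8 points mark 6 of the 8 falls.

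The 8 largest rises and falls were picked among called probes whose groups do not overlap. Each takes 1 probe per region, the one with the smallest p. Among these rises, the region beside Foxo6, a forkhead transcription factor, was above background on all 6 arrays. Its probe, the first sequence above, lies 15746 bases downstream of the Foxo6 probe in the region chr4:119923882-119924244. Its signal was 9740, 10500 and 4760 in shExosc8 and 1950, 2130 and 1310 in shControl. Every shExosc8 array was above every shControl array, and the rise was 4.47-fold (log2 2.16 ± 0.35 SE, limma adjusted p = 0.00817). It stayed called with any 1 array left out. The Foxo6 probe itself was above background on 2 shExosc8 arrays and 1 shControl array and could not be tested.

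The region probe 8251 bases upstream of Nqo2, a quinone reductase, had signals of 347, 352 and 166 in shExosc8 and 64.5, 93.5 and 38.9 in shControl. That is a rise of 4.42-fold (log2 2.14 ± 0.42 SE, limma adjusted p = 0.0147). Nqo2 itself gave 258, 245 and 296 against 297, 297 and 304, and its change of -0.17 did not pass the test. The change of the region exceeded that of Nqo2 by 2.32 on the log2 scale (± 0.47 SE, limma adjusted p = 0.014), and each of these calls was lost without any of 3 arrays. A second tested probe of that region, 13418 bases from Nqo2, gave 0.29 (limma adjusted p = 0.375).

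Dimmer rises made up the rest of this group. The region probe 4187 bases downstream of Ttll7, a tubulin polyglutamylase, read 80.1, 112 and 61 in shExosc8 and was not well above background on any shControl array. It was at least 3.38-fold higher (limma adjusted p = 0.00146), and the Ttll7 probe was not well above background on any array. A bound is the mean of the brighter group over, on each array of the dimmer one, the higher of the probe's own signal and the lowest signal well above background. The region probe 5386 bases downstream of Ptgs1, which encodes cyclooxygenase 1, read 72.5, 85.6 and 62.2 and was at least 3.15-fold higher (limma adjusted p = 0.00937). Here the coding gene rose as well, from 280, 360 and 381 in shControl to 3420, 3470 and 2470 in shExosc8 (log2 3.19 ± 0.19 SE).

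The probes beside Nnat (neuronatin, 9282 bases), Gm3776 (61 bases) and 8030423J24Rik (98 bases) rose by 3.00, 2.89 and 2.82 on the log2 scale, with limma adjusted p of 0.0154, 0.0121 and 0.0229. Their shControl arrays were above background on 1, 1 and 2 of 3 arrays, and none of these 3 neighbours could be tested. These calls were lost without any of 2, 1 and 2 arrays. A second probe of the Nnat region, 9082 bases away, gave 0.30 (limma adjusted p = 0.0628). The largest fitted rise, 3.85 ± 1.01 SE (limma adjusted p = 0.0355), was on chromosome 2 beside a probe annotated to Rps29, a ribosomal protein gene. Its signals were 445, 987 and 87.2 in shExosc8 and 8.38, 41 and 37.5 in shControl, so the shExosc8 arrays themselves differ by more than 10-fold. Leaving out any of 5 of the 6 arrays ended that call. RefSeq places Rps29 on another chromosome, as it does the neighbour gene of 11 members in all, so the coding probe there was located by the array's own coordinates alone.

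The largest fall above background on arrays of both groups was beside Spag9, a scaffold of JNK signalling. The probe printed above, 12551 bases downstream, read 49.2, 78.6 and 34 in shExosc8 and 270, 348 and 145 in shControl. It fell by 2.23 on the log2 scale (± 0.42 SE, limma adjusted p = 0.0133), and 2 of its 3 shExosc8 arrays were above background. A second probe of that region fell too, by 1.48. Spag9 itself read 2400, 3040 and 2260 in shExosc8 and 2210, 2330 and 2420 in shControl, overlapping groups with a log2 change of 0.13. The region's change lay below that of Spag9 by 2.37 (± 0.39 SE, limma adjusted p = 0.00695), and this call held with each array left out, while the region's own call was lost without either of 2 arrays.

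A group of 6 falls was not well above background on any shExosc8 array, so only bounds can be given. The probe beside Anxa5, a phosphatidylserine-binding annexin, 598 bases downstream, read 98.7, 99.9 and 93.7 in shControl and was at least 2.9-fold lower in shExosc8 (limma adjusted p = 0.00481). Anxa5 itself fell, from 11000, 11300 and 13200 to 5660, 4690 and 5730 (log2 -1.14 ± 0.13 SE, limma adjusted p = 0.0033). The probe 18998 bases downstream of Rwdd1 was at least 2.32-fold lower, the one 8797 bases from Rps20 at least 2.73-fold, and the one beside Zfp995, a zinc finger gene, at least 2.04-fold. The probe beside Zfp652, another zinc finger gene, was at least 1.6-fold lower, and the probe 13972 bases downstream of Ppp1r36 at least 1.69-fold. Limma adjusted p values of these 5 were 0.00176, 0.0369, 0.00865, 0.00157 and 0.0162. Under normexp correction the Zfp652 probe changed sign, to 0.08. Among other scalings and background corrections 1 ended the call beside Anxa5 and Rwdd1, and 2 ended it for the other 4. Those beside Rps20 and Ppp1r36 were also lost without any of 4 arrays. Other tested probes of the Ppp1r36 region gave 0.02, -1.29 and -0.45, and another of the Rps20 region gave -0.78, none called. Other tested probes of the Rwdd1 region (-0.85) and the Zfp995 region (-1.16 and -1.22) were called lower. Beside Anxa5 the others gave -1.12, called, and 0.38, not called. The last of the 8 largest falls, 19103 bases upstream of Zfp266, was -1.45 ± 0.33 SE and lost its call without any of 5 arrays. Other tested probes of its region gave -1.11, called, and -0.78, -0.60 and -1.49, not called.

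Over all pairs, changes of region and coding neighbour were more alike at shorter distance, but not within each kind of region described below. Both probes of a pair could be tested for 1048 members. Across pairs within 1 kb the log2 changes of region and neighbour correlated with r = 0.83 over 135 pairs, at 1 to 5 kb with 0.51 over 239, at 5 to 10 kb with 0.28 over 270, and at 10 to 20 kb with 0.19 over 404. Beyond 20 kb r was 0.08 over 2116 pairs. These are descriptions across probes on the same 6 arrays, with several probes per region and several regions per gene, and no p is given. Averaged to 1 value per region the same bins gave 0.81, 0.49, 0.25 and 0.17. The order of the 4 bins was the same under every scaling, filter and left-out array tried.

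**Figure D2:**
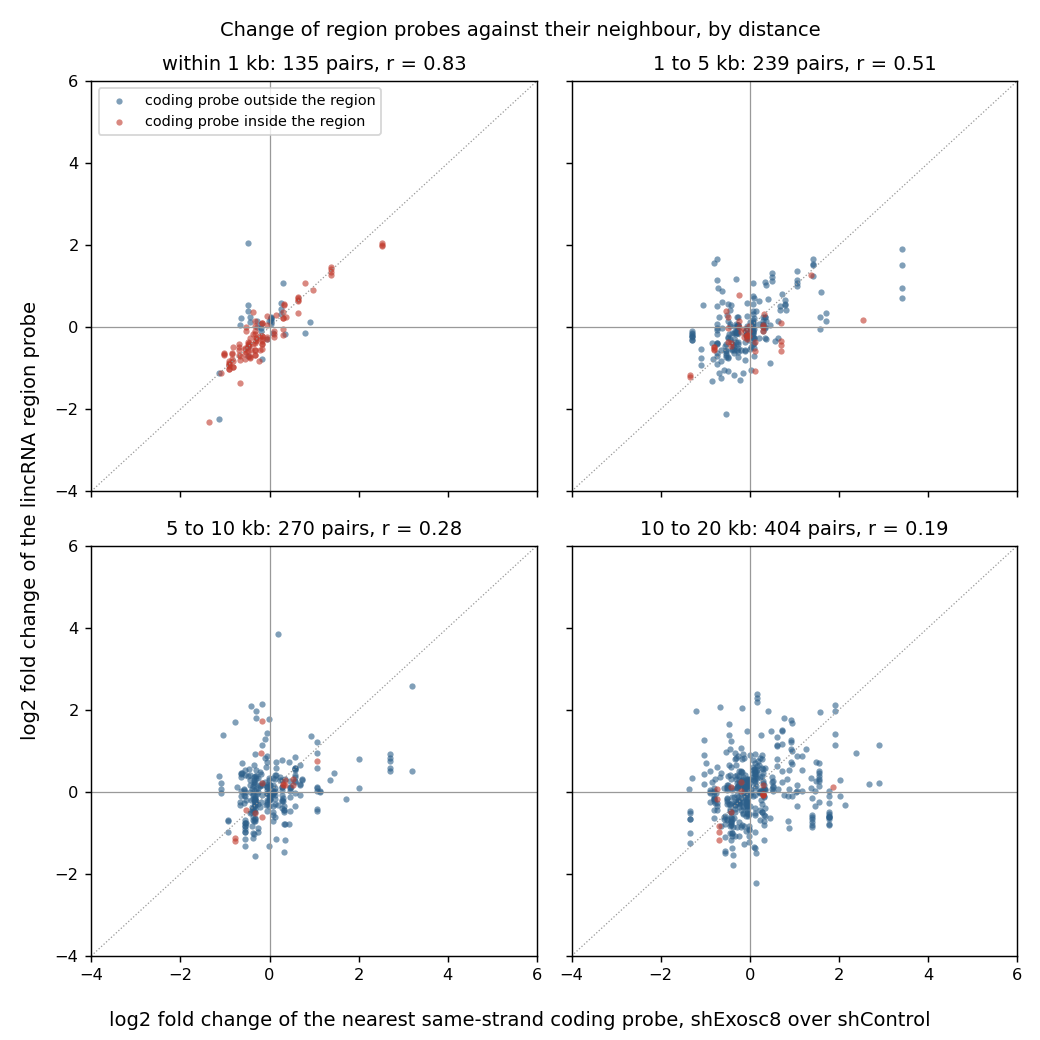
Log2 fold change (shExosc8 over shControl) of lincRNA region probes on the vertical axis against that of the nearest same-strand coding probe on the horizontal axis, in 4 bins of distance. Each point is 1 pair, red where the coding probe lies inside the bounds of the region, and the dotted line marks equal change. Within 1 kb the points follow the line (r = 0.83), and at 10 to 20 kb they spread around the axes (r = 0.19).

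The closest pairs were mostly from regions that take in the coding gene's own probe. In 91 tested regions the coding probe lay inside the region's stated bounds. For their 170 pairs r was 0.79 and the median absolute difference of change was 0.21, against 0.29 and 0.42 for 878 pairs whose coding probe was outside. Within 1 kb, 102 pairs of the first kind had r = 0.93, and 33 pairs of the second kind, from 20 regions, had r = 0.37. At 1 to 5 kb the values were 0.47 for 38 pairs and 0.52 for 201, at 5 to 10 kb 0.55 for 15 and 0.26 for 255, and at 10 to 20 kb 0.49 for 15 and 0.19 for 389. In neither kind did r fall from each bin to the next. Downstream and upstream members had r = 0.38 over 774 pairs and 0.30 over 251, and the 23 pairs whose probes overlap had 0.98.

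Lower calls were more frequent among the closest probes, a difference that was not tested. Within 1 kb, 42 of 144 tested probes (29.2%) were called lower and 18 higher (12.5%). At 10 to 20 kb, 58 of 497 (11.7%) were lower and 52 (10.5%) higher. The calls also split by kind of region. With the coding probe inside the region's bounds, 50 of 204 tested probes were lower and 24 higher. With it outside, 111 of 1038 were lower and 128 higher. When a region was called and its neighbour could be tested, 270 probes in all, the neighbour was called in the same direction for 116, in the opposite direction for 17 and not called for 137. Within 1 kb these counts were 40, 0 and 18 of 58, and at 10 to 20 kb they were 20, 12 and 66 of 98. For called region probes beyond 20 kb from their nearest same-strand coding probe, they were 134, 74 and 296 of 504. A further 43 called members, 36 higher and 7 lower, had a neighbour that could not be tested.

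**Figure D3:**
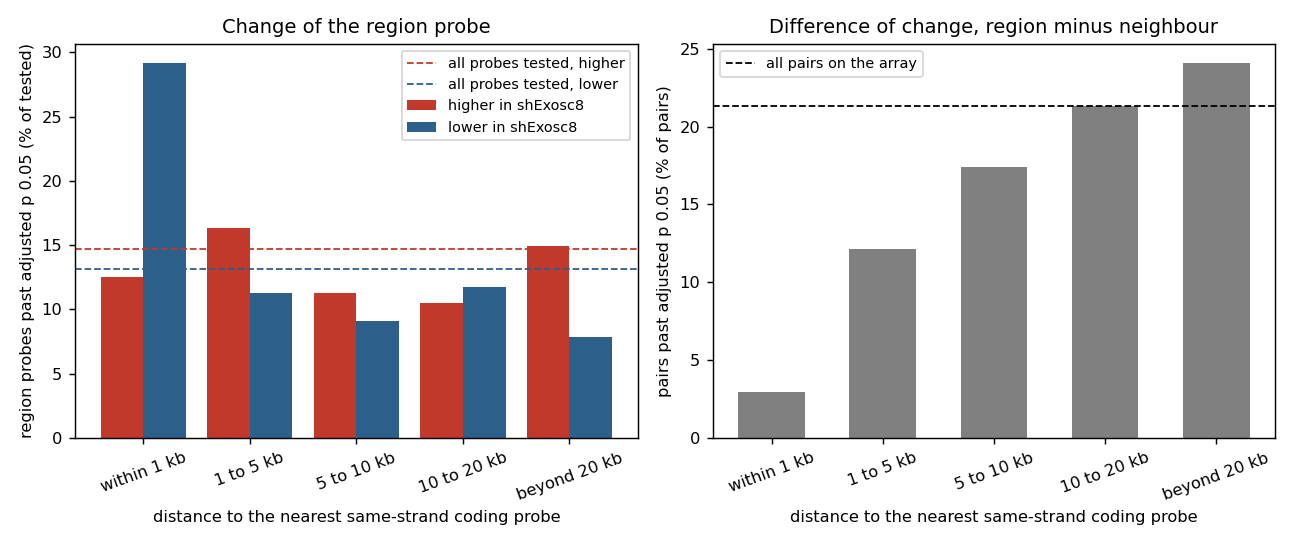
Left, percent of tested region probes called higher (red) or lower (blue) in shExosc8 at an adjusted p of 0.05, by distance to the nearest same-strand coding probe, with dashed lines for all 24836 probes. Right, percent of pairs whose region change differed from the neighbour's, with a dashed line for all 3164 pairs. Lower calls peak within 1 kb at 29.2%, and called differences run from 2.96% within 1 kb to 24.1% beyond 20 kb. Bars pool regions with the coding probe inside and outside their bounds. Within 1 kb, called differences were 0.0% of 102 pairs inside and 12.1% of 33 outside.

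The difference between a region's change and its neighbour's was tested within each array, so that array-wide scaling cancels. Of the 1048 member pairs, 68 from 58 regions were called higher than the neighbour and 98 from 57 regions lower, together 15.8%. Over all 3164 region pairs on the array, at any distance, 21.3% were called, 10.4% higher and 10.9% lower. Within 1 kb 2.96% of member pairs were called, then 12.1%, 17.4% and 21.3% in the 3 wider bins. The median absolute difference rose along the bins from 0.19 through 0.31 and 0.38 to 0.5 on the log2 scale. With the coding probe inside the region's bounds, 0.0% of 102 pairs within 1 kb were called, then 15.8%, 13.3% and 6.67%. With it outside, the shares were 12.1% of 33 pairs, then 11.4%, 17.6% and 21.9%. Among the 68 higher differences the region alone was called for 32, the neighbour alone for 19, both in opposite directions for 9 and neither for 8. Among the 98 lower ones the region alone was called for 17 and the neighbour alone for 59. In 14 of the 166 a probe was below background on every array of a group, so the size is a bound. With normexp correction 113 pairs were higher and 74 lower, and 68 and 95 of the calls kept their sign. Left-out arrays gave from 16 (without shExosc8 replicate 1) to 144 (without shExosc8 replicate 3) higher pairs and from 45 to 117 lower pairs.

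**Figure D4:**
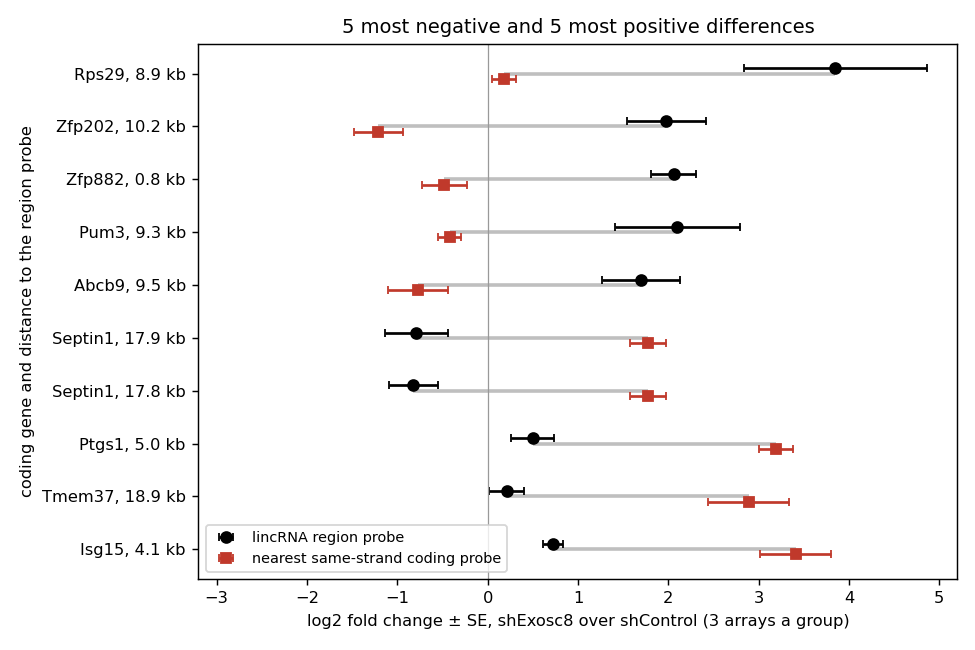
Log2 fold change ± SE (3 arrays a group) of the region probe (black circles) and of its nearest same-strand coding probe (red squares) for the 5 most positive and the 5 most negative differences. Lines join the partners, labelled by gene and distance. In the upper 5 the region lies above its neighbour by 2.47 to 3.67, and in the lower 5 below it by 2.56 to 2.69. The sizes for Zfp882 and Tmem37 are fitted values, since that coding probe was not well above background in 1 group, and with normexp correction they were 1.64 and -0.86.

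The most positive differences were as follows. The region probe 10176 bases downstream of Zfp202, a zinc finger repressor, read 1500, 1800 and 584 in shExosc8 and 374, 233 and 294 in shControl, a rise of 3.94-fold (log2 1.98 ± 0.44 SE, limma adjusted p = 0.0217). Zfp202 fell, from 84.4, 102 and 120 to 39.5, 32.7 and 64.2 (log2 -1.21 ± 0.27 SE, limma adjusted p = 0.0231), and 1 of its 3 shExosc8 arrays was above background. The difference was 3.19 ± 0.66 SE (limma adjusted p = 0.015). Both single calls were lost without any of 5 arrays, and the difference without any of 2.

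The region probe 9528 bases downstream of Abcb9, a lysosomal peptide transporter, read 487, 286 and 221 in shExosc8 and 86.2, 166 and 62.4 in shControl, a rise of 3.26-fold (limma adjusted p = 0.0322). Abcb9 read 2320, 2420 and 1210 against 3380, 4150 and 2390, and its change of -0.77 did not pass the test. Their difference was 2.47 ± 0.30 SE (limma adjusted p = 0.00282), and it stayed called with each array left out, while the region's own call was lost without any of 4. A region probe 817 bases upstream of Zfp882 rose by 2.06 ± 0.25 SE (limma adjusted p = 0.00379), while Zfp882 was not well above background on any shExosc8 array, so the size of their difference is not measured. A second probe of that region, 750 bases upstream, fell by 0.47 ± 0.13 SE (limma adjusted p = 0.0434), a call lost without any of 5 arrays and turned in sign by 1 scaling. Regions with calls in both directions numbered 3 in all, and the other two lay beside Fam78b and Mcl1. Beside Fam78b the calls were 0.54 and -0.51, and beside Mcl1, an anti-apoptotic gene, 0.58 and -1.14, of which the last was lost without either of 2 arrays and the other 3 without any of 5 or 6. The probe 9342 bases downstream of Pum3, an RNA-binding protein gene, had a difference of 2.51 ± 0.72 SE (limma adjusted p = 0.0465). Neither partner was called alone, and the difference was lost without any of 5 arrays. Other tested probes of the Pum3 region gave -0.49 and -0.21, with differences of -0.08 and 0.21, none called.

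In the most negative differences the coding gene rose more than the region. Isg15, an interferon-induced ubiquitin-like protein, read 138, 192 and 66.7 in shControl and 1310, 1550 and 1040 in shExosc8 (log2 3.41 ± 0.39 SE, limma adjusted p = 0.00307). The region probe 4061 bases downstream rose by 0.72 ± 0.11 SE (limma adjusted p = 0.00656), which is 2.69 less than Isg15 (± 0.37 SE, limma adjusted p = 0.00408). A neighbouring probe 4121 bases away rose by 1.9. Beside Ptgs1, a probe 5030 bases downstream had overlapping groups and a change of 0.50 against 3.19 for the gene (difference -2.69 ± 0.36 SE, limma adjusted p = 0.00359). The probe 5386 bases downstream, described above, lies in the next region along. Tmem37 was not well above background on any shControl array and was at least 4.5-fold higher in shExosc8, while the region probe 18855 bases upstream had overlapping groups (0.21 ± 0.19 SE), with a sign that turned under 2 scalings. A second probe of that region, 18969 bases away, rose by 1.13 (limma adjusted p = 0.0351).

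Upstream of Septin1, a cytoskeletal GTP-binding protein, 5 tested probes of 2 overlapping region names all lay below their neighbour. Septin1 rose from 544, 619 and 518 in shControl to 2400, 1980 and 1480 in shExosc8 (log2 1.78 ± 0.20 SE, limma adjusted p = 0.00273). The 5 region probes, 17619 to 17850 bases away, had changes of -0.59, -0.60, -0.54, -0.79 and -0.82, none called. The one 17775 bases away read 183, 170 and 176 in shExosc8 and 202, 432 and 341 in shControl. Their differences from Septin1 ran from -2.31 to -2.59, with limma adjusted p of 0.00281 to 0.0105. The array's own probes for Gm4532, listed under a noncoding RefSeq accession inside that region, gave -1.14 (limma adjusted p = 0.00394) and -0.59 (limma adjusted p = 0.161). Another overlapping region name there, chr7:134369091-134376366 on the minus strand, had 4 tested probes with a median of -0.55, none called. Their differences from Septin1 are not given here.

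Tiled regions showed whether a change held across probes of the same region name. Whether those probes read the same transcript was not tested. Among 170 regions with at least 3 tested probes, all probes were called higher in 8 and all lower in 10, some were called in 56 and none in 96. The median range of log2 change within such a region was 0.47. The regions described next were picked after their values were seen, because all probes or both strands moved one way, and they are given as description.

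The region chr17:26911397-26917047, plus strand, downstream of Crebrf, a regulator of the transcription factor CREB3, had 10 of 10 tested probes higher, by 1.41 to 2.22 on the log2 scale. Its probe with the smallest p read 1980, 2140 and 1450 in shExosc8 and 481, 513 and 451 in shControl, a 3.81-fold difference without overlap. The Crebrf probe 3656 to 4222 bases away read 75.4, 77.6 and 36.4 against 8.3, 33 and 8.33 and did not pass the filter. Downstream of Pnpla8, a phospholipase gene, 3 of 3 probes rose by 1.51 to 1.65, and Pnpla8 rose by 1.42. Of 6 probes in 2 regions around the Hectd4 probe all 6 rose, by 0.93 to 1.36 against 1.06 for Hectd4, a HECT-domain ubiquitin ligase gene. Downstream of Btg2, an antiproliferative gene, 3 of 3 probes rose by 1.16 to 1.51 at about 15 kb, while Btg2 gave 0.72 (limma adjusted p = 0.156).

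Some tiled regions close to the coding probe had changes near its own. Within 1084 bases of D5Ertd579e, 5 of 5 probes rose by 1.26 to 1.46 and D5Ertd579e by 1.37. Within 322 bases of Plekha8, a glycolipid transfer protein gene, 5 of 5 fell, by 0.82 to 1.01, and Plekha8 fell by 0.91. On the other strand of that region 3 of 3 probes were called lower as well, by 1.07 to 1.33. At Frem3, an extracellular matrix gene, 3 of 3 probes overlapping or within 94 bases rose by 1.98 to 2.06 and Frem3 by 2.53. Within 438 bases of Qser1, 3 of 3 fell by 0.63 to 0.67 and Qser1 by 1.01. Single probes of other close regions differed from their gene, such as the one beside Zfp882 described above. The probe 598 bases from Anxa5 gave -2.24 against -1.14 (limma adjusted p of the difference 0.0389, lost without any of 5 arrays). That probe was not well above background on any shExosc8 array, and with normexp correction the difference was 0.77. Another probe of that region, 538 bases from Anxa5, gave -1.12 (difference 0.02, limma adjusted p = 0.98). Downstream of Ttc37, a subunit of the SKI complex that serves the cytoplasmic exosome, 4 of 5 probes were called lower, and the best measured fell by 0.68 beside -0.54 for Ttc37 (limma adjusted p = 0.015). On the other strand of the Ttc37 region 2 of 4 probes were called lower.

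Other tiled regions further away fell together. Downstream of Zfr, a zinc finger RNA-binding protein gene, 5 of 5 probes at 11003 to 11367 bases fell by 0.67 to 1.37, and Zfr gave -0.41 (limma adjusted p = 0.0518), but none of the 5 differences from Zfr passed (limma adjusted p 0.115 to 0.563). Downstream of Ccnc, which encodes cyclin C, 3 of 3 probes fell by 0.53 to 1.22 while Ccnc gave -0.02, and 1 of the 3 differences passed. It was at the probe that fell by 1.22, which was not well above background on any shExosc8 array. That probe was at least 1.96-fold lower, and 2 other scalings or background corrections ended its call. Its difference from Ccnc was lost without any of 4 arrays and was -0.15 with normexp correction. An overlapping region name on that strand, chr4:21683562-21694350, had 3 tested probes with a median of -0.92, and 2 of them were called lower. Downstream of Zfp652, 9 of 9 probes fell by 0.73 to 2.13 beside -0.55 for Zfp652, and 2 of the 9 differences passed, one of them at the probe whose sign turns under normexp. A probe for an annotated Zfp652 transcript within the region fell by 0.93. On the other strand of the region 7 of 7 probes were called lower as well, by 1.1 to 1.53.

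**Figure D5:**
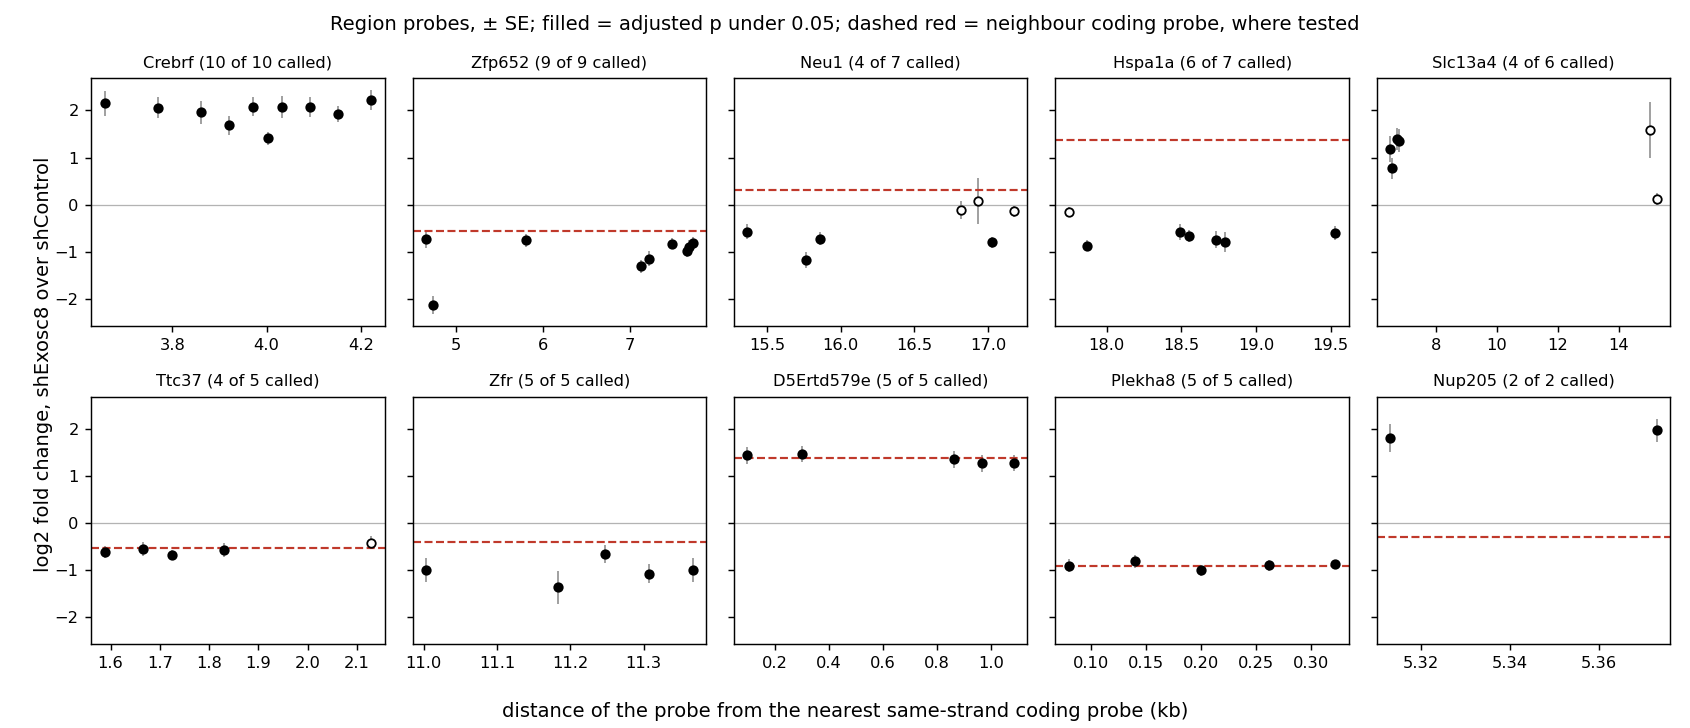
Log2 fold change ± SE of each tested probe in 10 tiled regions against its distance in kb from the nearest same-strand coding probe named above each panel. Filled points passed an adjusted p of 0.05, open points did not, and the dashed red line is the coding probe's own change where it was tested. Probes beside D5Ertd579e and Plekha8 lie on that line, and those beside Hspa1a and Nup205 lie on the other side of 0 from it.

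Some regions changed on both strands. The other strand was also tested for 206 member regions, and across them the median changes of the strands correlated with r = 0.29. Of 41 regions with a higher call, the other strand had a higher call in 8 and a lower call in 3. Of 29 with a lower call, it had a lower call in 11 and a higher call in 4. A place with tested members on both strands is counted under each strand name, with the values exchanged. These counts and the r of 0.29 are therefore not over separate places. In 62 pairs of probes that share at least 30 bases on opposite strands, both probes were called the same way in 3, none was called in opposite ways, 1 was called in 12 and neither in 47.

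The region chr6:35201798-35217831 rose on both strands, between Nup205, a nuclear pore scaffold, and Slc13a4, a sulfate transporter. On the plus strand, the probe printed above read 7610, 7830 and 4420 in shExosc8 and 1810, 1800 and 1380 in shControl, a rise of 3.89-fold (log2 1.96 ± 0.25 SE, limma adjusted p = 0.00436). Nup205, 5373 bases away, read 9950, 8950 and 12000 against 12200, 12100 and 13600 (log2 -0.30, limma adjusted p = 0.147), and the difference was 2.26 ± 0.37 SE (limma adjusted p = 0.00665). The array also has probes for 1810058I24Rik in that region, and these gave 1.87, 1.34 and 1.18, of which the first and the last passed the test. On the minus strand 4 of 6 probes rose, and the best measured read 3750, 3880 and 2310 against 1240, 1400 and 1060, a 2.63-fold rise (limma adjusted p = 0.00907). Slc13a4, on that strand, was above background on 1 array in all.

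The region chr17:35080914-35090009 had lower calls on both strands, and neither neighbour was called lower. The array's own probe for the noncoding RNA 1110038B12Rik there gave -0.40 (limma adjusted p = 0.1). The plus-strand sequence printed above with Neu1, a lysosomal sialidase gene, as neighbour, and the minus-strand one with Hspa1a, which encodes an HSP70 chaperone, cover 59 bases in common. The plus-strand probe read 120, 108 and 110 in shExosc8 and 177, 215 and 199 in shControl (log2 -0.80 ± 0.12 SE, limma adjusted p = 0.00655). The minus-strand probe read 489, 465 and 551 against 1010, 882 and 854 (log2 -0.87 ± 0.12 SE, limma adjusted p = 0.00581). Groups did not overlap for either. In all 4 of 7 plus-strand and 6 of 7 minus-strand probes were called lower. Hspa1a itself rose, from 71.2, 93.6 and 47.1 to 189, 198 and 149 (log2 1.38 ± 0.27 SE, limma adjusted p = 0.0142), so that the minus-strand probe lay 2.25 below it (± 0.31 SE, limma adjusted p = 0.0041). Neu1 gave 0.31 (limma adjusted p = 0.204).

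At the printed Perm1 and Isg15 place, both probes cover the same 60 bases, and they differed. The minus strand, with Isg15 as neighbour, read 110, 112 and 80.6 in shExosc8 and 23.2, 33.5 and 53.6 in shControl (log2 1.52 ± 0.32 SE, limma adjusted p = 0.018). The plus strand read 70.8, 62.2 and 57.2 against 78.8, 93.6 and 56.2, overlapping groups with a change of -0.24 (limma adjusted p = 0.403).

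Groups overlapped for 2 of the 3 brightest members, those beside Nes and B4galt5. The probe 11697 bases upstream of Nes, which encodes the intermediate filament nestin, had signals of 56600, 65300 and 54100 in shExosc8 and 59400, 56400 and 52400 in shControl, a change of 0.06 ± 0.12 SE, whose sign turned under 2 scalings. The B4galt5 neighbour printed last, the one with AATAAA, read 105000, 115000 and 104000 against 112000, 108000 and 107000 (log2 -0.01 ± 0.10 SE). B4galt5, a galactosyltransferase gene 17136 bases away, rose by 1.02 ± 0.19 SE (limma adjusted p = 0.0125), and the difference was -1.04 ± 0.23 SE (limma adjusted p = 0.0203), a call lost without any of 4 arrays.

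At the 20 kb limit itself, the tested probes just inside were 19934 bases from Fis1 and 19984 bases from Gtpbp8, with log2 changes of -0.63 and -0.32. Those just outside were 20020 bases from Itgb1bp2 and 20027 bases from Mcfd2, with -0.49 and -0.70. None of these 4 was called. Narrowing the rule to 10 kb left 100 higher and 103 lower calls among 745 tested probes, and to 5 kb 64 and 74 among 426.

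Genes that act with the nuclear exosome or at transcript ends were read as lists. Of 10 tested nuclear exosome adaptors and cofactors, limma called 4 lower, with a median log2 change of -0.35 beside -0.08 for all probes. Mphosph6, an exosome-associated protein, fell by 0.82 ± 0.15 SE and Zcchc7, a subunit of the TRAMP adaptor, by 0.47 ± 0.12 SE. Of 22 genes of 3′ end cleavage, polyadenylation and termination, 1 was called higher and 5 lower (median -0.27). Scaf4 fell by 0.56 and Scaf8 rose by 0.46, both regulators of early termination. Of 11 tested subunits of Integrator, which cuts nascent transcripts, 4 were lower (median -0.43), with Ints9 at -0.50 and Ints3 at -0.49. All of these calls, Mphosph6 apart, were lost in 4 or more of the 6 fits without 1 array. Of 19 tested long noncoding RNAs with names, 2 rose and 4 fell (median -0.28). Neat1, the scaffold of paraspeckles, rose by 3.02 ± 0.38 SE, and Snhg12, a snoRNA host, fell by 0.59 ± 0.14 SE.

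Markers of other blood cells also moved between the groups, and their part in the region changes was not tested. In bulk RNA, fewer cells of a type and less RNA per cell cannot be told apart. All 11 megakaryocyte markers were called higher (median log2 change 3.17), led by Gp1bb (3.92) and Selp (3.04), and their summed signal was 331000 to 472000 in shExosc8 and 35300 to 51400 in shControl. All 12 neutrophil and monocyte markers were higher too (median 2.14), among them S100a8 (2.17) and Ly6c1 (2.16), with sums of 249000 to 324000 and 68400 to 83900. Of 11 tested erythroid markers 4 were higher, with Alas2 at 1.67 and Epb42 at 1.72, sums of 1530000 to 2320000 and 1070000 to 1290000. Gata1 gave 0.06 and Klf1 -0.37, neither called, and all of these erythroid genes were above background. Macrophage markers were higher for 4 of 5 (Lyz2 2.27, Csf1r 1.08) with sums of 5140 to 6640 and 2270 to 2990, and Vcam1 was not above background on any array. Mast cell and basophil markers were higher for 4 of 5 (Cpa3 3.25, Hdc 1.27) with sums of 14300 to 23200 and 4720 to 6820, with Fcer1a and Ms4a2 not above background. Hepatocyte markers were higher for 3 of 6 (Fgb 1.83, Ahsg 1.69), with sums of 3480 to 4640 and 2330 to 2730. Endothelial and stromal markers were higher for 2 and lower for 1 of 4 (Sparc 2.69, Pdgfrb -1.29), with sums of 7180 to 8290 and 5440 to 5610, and Cdh5, Col1a1 and Col3a1 were not above background.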

How the data were processed

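Per the file headers, the deposited spot intensity values and flags were made by Agilent Feature Extraction 10.7.3.1 with background subtraction and detrending inside each array. The headers place probes on mm9. The authors' deposited comparison holds log2 fold changes and adjusted p-values. The submitters' processing notes name limma, and the sources used here do not give its normalization. Another 6 columns of per-sample values there were not used.

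Control spots and spots with a non-uniformity or population outlier flag were removed, repeated spots were averaged by probe, and 21 probes had no usable spot on some array. Log2 intensity was scaled by each array's 75th percentile over the 21615 probes well above background on all 6 arrays. Printed signals are that value set back on the intensity scale. The 24836 probes clear of background on every array of 1 or both groups were tested with limma 3.58.1 in R 4.3.3 (two-sided, Benjamini-Hochberg, 0.05). The per-array log2 difference of region and nearest same-strand NM_ probe was tested likewise over 3164 pairs. Scripts were tested on simulated data. Symbols came from a RefSeq table (GRCm38.p6), which matched 715 of 728 neighbour probes.

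Named were the 8 largest rises and falls with groups that do not overlap (1 probe per region, that of smallest p), 5 differences each way, 3 brightest probes (1 of them is not reported here), 2 on each side of 20 kb, regions with opposite calls and the 2 genes of smallest p in each list; other genes of the lists and the tiled or two-strand regions were added after their values were seen. Regions on 1 chromosome were counted, not named. Members and lists were chosen with earlier results of these data known. The number of arrays limits precision. Alternatives were other scalings, normexp (offset 50), quantile normalization, filters, 1 probe per name, blocks, left-out arrays, a trend, a threshold of 0.01, shorter distances and the neighbour's brightest probe.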

Additional observations from a re-analysis of the deposited data

Results flagged for a closer look

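Among 118 lincRNA region probes that have no position in the files, and so could not be placed near any gene, 40 passed the filter and 11 were past an adjusted p of 0.05 in the same limma fit, 6 higher and 5 lower in shExosc8. Above they were counted together with the regions that had no coding probe within 20 kb. The other-strand probe of the region downstream of Crebrf is among them. No neighbour can be given for them, so they enter no comparison of a region with its neighbour.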

How the results depend on the processing

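Counts of members past the threshold, 152 higher and 161 lower in shExosc8, moved with most choices. The lower count was 252 with the percentile over all probes, and normexp with the percentile gave 53. Without normalization between arrays 89 were higher and 455 lower, without a filter on dim probes 47 and 18, with 1 probe per name 95 and 57, and at an adjusted p of 0.01 60 and 35. Within 10 kb the counts were 100 and 103, and within 5 kb 64 and 74. With 1 array left out, higher counts ran from 79 to 249 and lower counts from 52 to 200. Without both shControl 2 and shExosc8 3, a setting chosen after seeing the data, 265 were higher. For differences from the neighbour, 68 higher and 98 lower, normexp with the percentile gave 113 higher, no filter 8 and 15, 1 probe per name 34 and 29, an adjusted p of 0.01 15 and 34, 10 kb 41 and 39, 5 kb 17 and 16, and the setting chosen after seeing the data 134 higher. Left-out arrays gave 16 to 144 higher and 45 to 117 lower. The fit with slide column as a block, which rests on the columns that hold both groups, left 2 members higher and 1 lower, and 0 pairs in either direction by limma, with 128 of 1048 pairs at an unadjusted p under 0.05. In that fit Exosc8 was -1.03 (limma adjusted p = 0.142). The Zfp652 region turned to 0.08 under normexp with the percentile, and the Tmem37 region, not called, to -0.29 without normalization and to -0.0 with normexp and quantile normalization. The cause of these moves was not tested. Signal over background limits most members, since 2346 of 3588 could not be tested.

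Replicate numbers were shared across groups, and the sources used here do not say whether same-numbered arrays were paired. Their deviations from the group mean correlated with 0.052, 0.21 and 0.284. No values for differently numbered arrays stand beside these, so they do not decide whether the arrays were paired. With the replicate block 188 members were higher and 149 lower, and 88 and 87 pairs differed, and Exosc8 was -1.14 (limma adjusted p = 0.00897).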
